A study of Mus musculus with 6 samples.

Results

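A set of 10 genes that take choline into cells or build choline and ethanolamine phospholipids was followed in gonadal white adipose tissue (gWAT), the fat pad beside the reproductive organs, of mice on a normal chow diet (NCD) or a high-fat diet (HFD). They are *Slc5a7*, *Slc44a1*, *Slc44a2*, *Chka*, *Chkb*, *Pcyt1a*, *Pcyt2*, *Chpt1*, *Cept1* and *Selenoi*, and they were found by NCBI gene identifier as 10 of the 19790 genes in the deposited count table. *Slc5a7* was chosen by its large difference between these same libraries, so its values are described here without a test. The other 9 genes were taken for their place in the pathway, with earlier results of these data known.

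Bulk RNA-seq was done on gWAT of 6 wild-type mice of the strain C57BL/6, 3 fed NCD and 3 fed HFD for 8 weeks. The labels put the start of the diets at 6 weeks of age and the study's methods put it later, and the methods name male mice. No transgene or drug is named for these groups, but the methods also use the name WT for floxed mice that lack Cre. Each library is called by its diet and replicate number, and depth was 49575113 to 66360046 counts.

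Phosphatidylcholine and phosphatidylethanolamine are the main phospholipids of animal membranes, and in adipocytes they also form the single layer that coats the lipid droplet. Both can be built by parallel CDP routes. Choline or ethanolamine enters the cell through a carrier, a kinase adds phosphate, a cytidylyl transferase activates the product with CTP, and a phosphotransferase joins it to diacylglycerol. SLC5A7 is the high-affinity, sodium-dependent choline transporter best known from cholinergic nerve endings, where it supplies choline for acetylcholine.

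The region upstream of 2 of the genes is shown because the difference between the diets was largest for *Slc5a7* and, among the other 9, *Chpt1* had the largest fitted fold change. Each sequence is the 250 bases before the outermost transcript start in RefSeq's promoter table on GRCm38.p6. It is written 5′ to 3′ on the strand of the gene (minus for both), with CpG dinucleotides in capitals. The 2 lie at chr17:54299035-54299284 for *Slc5a7* and chr10:88503971-88504220 for *Chpt1*. Such a window can reach into the bounds of the gene, by a few bases for *Slc5a7* and by more for *Slc44a1* and *Chka*.
Slc5a7: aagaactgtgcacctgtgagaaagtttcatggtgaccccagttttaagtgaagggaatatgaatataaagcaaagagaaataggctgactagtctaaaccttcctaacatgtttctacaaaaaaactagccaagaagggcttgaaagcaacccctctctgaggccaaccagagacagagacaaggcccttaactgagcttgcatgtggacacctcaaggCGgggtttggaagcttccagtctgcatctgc
Chpt1: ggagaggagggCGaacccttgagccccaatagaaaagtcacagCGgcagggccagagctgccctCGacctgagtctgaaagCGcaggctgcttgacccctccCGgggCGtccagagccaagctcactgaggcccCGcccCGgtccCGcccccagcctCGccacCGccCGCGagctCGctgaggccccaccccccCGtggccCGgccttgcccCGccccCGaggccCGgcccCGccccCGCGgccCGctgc

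The *Slc5a7* sequence had 1 CpG and a GC content of 45.6%, and the *Chpt1* sequence had 23 CpG and 75.6%. Of the 10 genes, 9 had an entry in the RefSeq promoter table of 27025 promoters and *Pcyt2* was not among them. The 8 matched genes other than *Slc5a7* had 9 to 38 CpG, and the median over all promoters was 6 CpG with a GC content of 52%. A promoter with 1 CpG or none was found in 19.5% of all entries. Both strands were searched for 6 motifs. The GC box GGGCGG was found in each of the 8 other genes and not in *Slc5a7*, and in 33% of all promoters. The TATA box TATAAA was found in *Slc5a7* and in *Chkb*, and in 13% of all promoters. The CCAAT box (CCAAT, 34.5% of all promoters) was found in *Chka*, *Chkb*, *Chpt1* and *Selenoi*. The E-box CACGTG (6.04%), the PU.1 core GAGGAA (23.1%) and the AP-1 site TGANTCA (6.85%) had no match in these windows. These matches describe letters in a window and not binding.

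NCD replicate 1 stood apart from the other libraries. Genes for secretions of the seminal vesicle, a gland that lies against the gonadal fat pad, took 58.6% of its counts, against 11.2% in NCD replicate 2, 2.30% in NCD replicate 3 and almost none on HFD. Levels are therefore given as CPM, counts over library size, scaled with the trimmed mean of M-values (TMM), and the results that turn on that mouse are given with and without it. The tissue label was checked with 10 adipocyte genes, all of which were measured. Their summed level was 5830, 22001 and 30070.5 CPM in NCD replicates 1 to 3 and 15774, 16554 and 12520 on HFD. Between the diets 0 of the 10 passed the threshold (an adjusted p of 0.05 in edgeR, after Benjamini and Hochberg), beside 7.47% of all genes. Without NCD replicate 1, 5 of the 10 were lower on HFD, *Cfd*, *Lipe*, *Plin1*, *Retn* and *Slc2a4*, and none was higher, beside 10.1% of all genes called lower (marker genes are named after their values were seen). NCD replicate 1 was thus also the library with the lowest adipocyte sum. In bulk tissue, fewer cells of a type and less RNA per cell cannot be told apart.

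*Slc5a7* (NCBI gene 63993, chr17:54273590-54299038 on GRCm38) was close to absent on NCD and present in all 3 HFD mice. Its counts were 2, 12 and 0 in NCD replicates 1 to 3 and 6200, 558 and 978 in HFD replicates 1 to 3. As TMM-scaled CPM these were 0.061, 0.20 and 0 on NCD, where a count of 0 in replicate 3 allows up to 0.056, and 107, 6.69 and 15.6 on HFD. The lowest HFD mouse was 33.3 times the highest NCD mouse.

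The HFD mice were far from alike in this gene. HFD replicate 1 had 16.1 times the level of replicate 2 and 6.89 times that of replicate 3. The ratio of the HFD mean (43.2 ± 55.8 CPM, SD, n = 3) to the NCD mean (0.087 ± 0.10, n = 3) was 496, and it was 128 without HFD replicate 1. The SD on HFD thus exceeded the mean. The fitted log2 fold change was 8.84, and it was 8.67 without NCD replicate 1 and 6.91 without HFD replicate 1. Because the gene passed the filter on low counts only through the HFD libraries and was chosen for this contrast, no p is given.

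**Figure D1:**
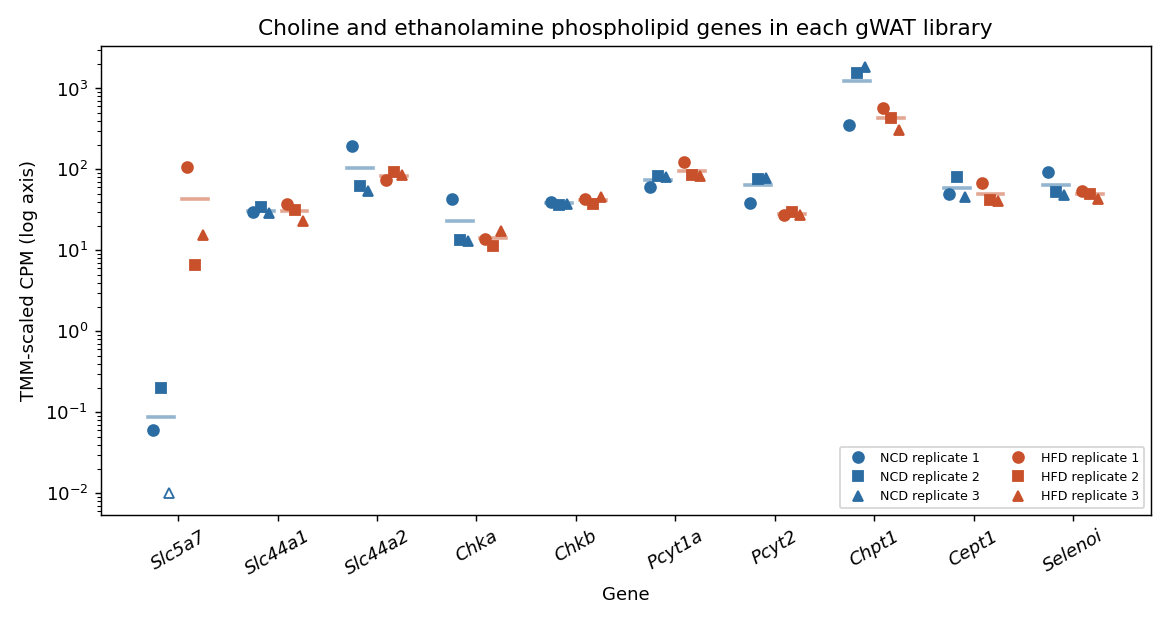
TMM-scaled CPM of the 10 genes in each library, on a log axis, with NCD in blue, HFD in orange, 1 symbol per replicate number and a line at each mean; the open triangle is a level of 0, drawn at 0.01. *Slc5a7* runs from 0 to 0.20 on NCD and from 6.69 to 107 on HFD, while the other 9 genes differ less, *Chpt1* for example between 305 and 1830 over both diets.

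The summed level of 11 macrophage genes was higher in the same libraries as *Slc5a7*. It was 754, 968 and 859 CPM on NCD and 5195, 2542 and 3140 on HFD, and 5 of the 11 (*Adgre1*, *Cd68*, *Gpnmb*, *Itgam* and *Trem2*) were higher on HFD past an adjusted p of 0.05 in edgeR, as were 5.58% of all genes tested. The other 6 did not pass with all mice, and 10 of the 11 were higher without NCD replicate 1, beside 10.7% of all genes. Among the HFD mice the macrophage sum and *Slc5a7* had the same order, highest in replicate 1 and lowest in replicate 2. The *Slc5a7* level spanned a wider range in these mice than the macrophage sum did. The part of macrophages in the *Slc5a7* level was not tested.

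Neuronal genes were low but their sum was higher in every HFD mouse. Of a list of 10, 8 were in the table and 2 passed the filter. With all mice 0 were called, beside 7.47% of all genes. Without NCD replicate 1, 1 was higher, *Uchl1*, beside 10.7% of all genes. The 8 genes summed to 3.01, 2.89 and 2.66 CPM on NCD and 6.36, 11.05 and 9.96 on HFD. This was below the level of *Slc5a7* alone in HFD replicates 1 and 3. *Dbh*, *Nefl* and *Nefm* had no count in any NCD library. The part of neurons in the *Slc5a7* level was not tested.

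**Figure D2:**
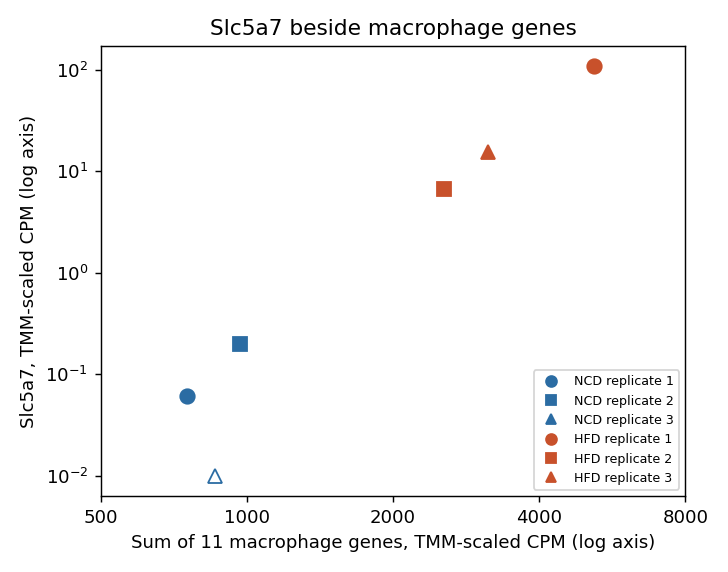
*Slc5a7* against the summed level of 11 macrophage genes, both in TMM-scaled CPM on log axes, 1 point per library, with NCD in blue and HFD in orange; the open triangle is a *Slc5a7* level of 0, drawn at 0.01. The NCD mice lie at sums of 754 to 968, and the HFD mice run in 1 order on both axes, from 2542 to 5195.

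Over the 6 mice, the genes whose log2 level was most like that of *Slc5a7* (Pearson's r of log2 of CPM plus 0.1) were *2310022A10Rik* (r = 0.999), *Hpgds* (0.998), *Amz1* (0.998), *Anxa4* (0.997) and *Il7r* (0.997). *Hpgds* encodes hematopoietic prostaglandin D synthase and *Il7r* the interleukin-7 receptor. *Hpgds* was at 5.51, 7.97 and 5.39 CPM on NCD and 84.5, 24.4 and 36.4 on HFD, and *Il7r* at 3.01, 3.96 and 2.68 on NCD and 98.7, 28.2 and 32.8 on HFD. Both were highest in HFD replicate 1, by less than *Slc5a7* was. A likeness of r above 0.9 was shared by 987 genes, 6.48% of those tested, so it was common among the genes tested.

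None of the other 9 genes was called between the diets with all 6 mice, and 3 were called without NCD replicate 1. By the edgeR quasi-likelihood test, adjusted over 15241 genes, 0 of the 9 passed an adjusted p of 0.05, against 7.47% of all genes tested (5.58% higher and 1.9% lower on HFD). At an unadjusted p under 0.05, 1 of the 9 passed, *Pcyt2*, against 29.7% of all genes, and DESeq2 also called 1, again *Pcyt2*, against 23%. The 3 calls without NCD replicate 1 were *Slc44a2*, which was higher, and *Pcyt2* and *Chpt1*, which were lower, against 20.9% of 15510 genes called (10.7% higher and 10.1% lower). Among 9 genes this is not far from that background. The median log2 fold change of the 9 was -0.30 beside -0.08 over all genes, and -0.04 beside 0.02 without that mouse.

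The diets did not overlap in 2 of these 9, *Pcyt1a* (higher) and *Pcyt2* (lower), against 39.2% of all genes tested (20.5% higher and 18.7% lower). Without NCD replicate 1 this held for 4 of the 9, *Slc44a2* and *Pcyt1a* being higher and *Pcyt2* and *Chpt1* lower, against 57.1% of all genes (27.9% higher and 29.1% lower). Neither share exceeded that of all genes.

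**Figure D3:**
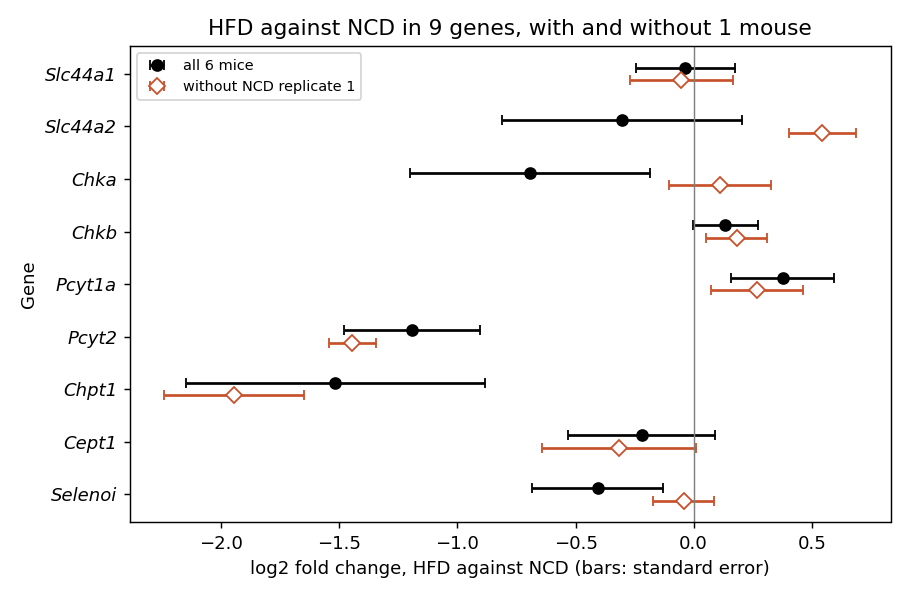
Log2 fold change of HFD against NCD with its standard error for the 9 genes other than *Slc5a7*, with all 6 mice (black points) and without NCD replicate 1 (open diamonds). *Pcyt2* and *Chpt1* lie lowest in both, at -1.19 and -1.52 with all mice, and *Slc44a2* crosses from -0.30 to 0.54.

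Among the carriers, *Slc44a1* and *Slc44a2* encode choline transporter-like proteins of plasma and mitochondrial membranes. *Slc44a1* was at 29.7, 34.5 and 28.9 CPM on NCD and 37.0, 31.2 and 22.8 on HFD. Its diets overlapped widely, with a log2 fold change of -0.03 (edgeR adjusted p = 0.926) and of -0.05 (0.883) without NCD replicate 1. *Slc44a2* was at 193, 61.9 and 53.6 CPM on NCD and 74.1, 91.7 and 84.2 on HFD.

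The high *Slc44a2* value was that of NCD replicate 1. With it, the log2 fold change was -0.30 (SE 0.51, edgeR adjusted p = 0.717), and without it *Slc44a2* rose by 0.54 (SE 0.14, adjusted p = 0.0476), 1.44 times the mean of the other NCD mice. All 3 HFD mice were then above both remaining NCD mice. Epithelial genes (a list of 8) summed to 1378 CPM in NCD replicate 1 against 16.97 to 139 in the other libraries, and smooth muscle genes (8) to 6721 against 260 to 808. Their part in the *Slc44a2* value was not tested.

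Choline kinases carry out the first step inside the cell. *Chka*, which encodes the alpha isoform, was at 42.6, 13.6 and 13.1 CPM on NCD and 13.9, 11.4 and 17.5 on HFD. Apart from NCD replicate 1 the diets overlapped, and its log2 change of -0.69 (edgeR adjusted p = 0.396) went to 0.11 (0.739) without that mouse. *Chkb*, the beta isoform, was at 39.9, 36.8 and 37.9 CPM on NCD and 42.6, 37.1 and 46.0 on HFD, and the diets overlapped (log2 fold change 0.13, adjusted p = 0.538, and 0.18, 0.361, without that mouse). The gene model *Gm44502* lies on the same strand over 3337 bases of *Chkb* and had 21 to 224 counts per library, so the split of reads between them is uncertain.

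Cytidylyl transferases set the pace of each route, PCYT1A for choline and PCYT2 for ethanolamine. *Pcyt2* was at 38.1, 75.6 and 78.8 CPM on NCD and 27.2, 29.5 and 27.5 on HFD. Every HFD mouse was below every NCD mouse, and the HFD mice differed among themselves by little (28.1 ± 1.23 CPM, SD, n = 3, against 64.2 ± 22.6 on NCD). Its log2 fold change was -1.19 (SE 0.29, edgeR adjusted p = 0.0603), just short of the threshold. Without NCD replicate 1 *Pcyt2* fell by 1.44 on the log2 scale (SE 0.10, adjusted p = 0.0054), and the mean of the remaining NCD mice was 2.75 times the HFD mean.

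*Pcyt1a* was at 61.3, 82.2 and 80.4 CPM on NCD and 122, 84.9 and 83.8 on HFD. The HFD mice were all above the NCD mice, though HFD replicates 2 and 3 by a narrow margin, with the lowest HFD mouse at 1.02 times the highest NCD mouse. The log2 fold change was 0.38 (edgeR adjusted p = 0.292) and 0.27 (0.366) without NCD replicate 1.

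Phosphotransferases make the finished phospholipid. CHPT1 makes phosphatidylcholine, SELENOI (ethanolamine phosphotransferase 1) makes phosphatidylethanolamine, and CEPT1 can make both. *Chpt1* was at 355, 1553 and 1830 CPM on NCD and 569, 432 and 305 on HFD. NCD replicates 2 and 3 were well above all HFD mice, and NCD replicate 1 lay among them. The log2 fold change was -1.52 (SE 0.63, edgeR adjusted p = 0.173) with all mice, and without NCD replicate 1 *Chpt1* fell by 1.95 on the log2 scale (SE 0.29, adjusted p = 0.0126), the mean of the other NCD mice being 3.88 times the HFD mean.

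The adipocyte sum given above, of which 5 genes fell without NCD replicate 1, had a like order on NCD, lowest in replicate 1 and highest in replicate 3, and was lower on HFD than in NCD replicates 2 and 3. *Pcyt2*, and of the genes below *Chdh*, *Enpp2*, *Bche* and *Pemt*, had this order on NCD too and were lower on HFD. Other genes below, such as *Pnpla7* and *Pisd*, had this order on NCD and were higher on HFD. The part of the adipocyte sum in the *Chpt1* difference and in these others was not tested. *Chpt1* also overlaps *Sycp3* on the opposite strand over 13668 bases. *Sycp3* had 66, 586 and 745 counts on NCD and 2653, 865 and 1219 on HFD, and since the strand setting of the counting is not stated, reads of this overlap could have been assigned to either gene.

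*Cept1* was at 49.3, 81.3 and 45.3 CPM on NCD and 67.8, 42.2 and 41.0 on HFD. One mouse of each diet was high and the diets overlapped. The log2 fold change was -0.22 (edgeR adjusted p = 0.664), and -0.32 (0.52) without NCD replicate 1. *Cept1* overlaps *Dennd2d* on the opposite strand over 771 bases. *Dennd2d* had 1341, 2680 and 3433 counts on NCD and 599, 1126 and 646 on HFD. Reads of this overlap could have been assigned to either gene, which also limits the ratios to *Cept1* below. *Selenoi* was at 93.2, 53.0 and 49.0 CPM on NCD and 54.7, 49.1 and 43.3 on HFD. Its high value was again that of NCD replicate 1, and the log2 fold change of -0.41 (0.365) went to -0.04 (0.842) without it.

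Levels of different genes were compared per length, as FPKM, here TMM-scaled CPM divided by the exon length in kilobases. *Chpt1* had the highest level of the 10 genes in 5 of 6 mice, at 195 and 230 FPKM in NCD replicates 2 and 3 and 38.4 to 71.6 on HFD. In NCD replicate 1 it was at 44.7, below *Slc44a2* at 53.4. *Slc5a7* was the lowest of the 10 in 5 of 6 mice. In HFD replicate 1 it had rank 5, at 20.7 FPKM, next to *Slc44a2* at 20.5, and in HFD replicates 2 and 3 it was at 1.29 and 3.01.

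Ratios of FPKM within a library do not depend on the scaling, and 5 pairs were compared, with an exact two-sided sign-flip test over the 6 mice. *Slc44a2* exceeded *Slc44a1* in 6 of 6 mice (mean log2 ratio 2.36 ± 0.73, SD), and *Chpt1* exceeded *Cept1* in 6 of 6 (2.25 ± 0.98). *Chka* was below *Chkb* in 6 of 6 (-1.87 ± 0.67), as was *Selenoi* below *Cept1* (-1.08 ± 0.52). Each of these gave p = 0.0312, the smallest that 6 mice allow, or 0.0391 after Benjamini-Hochberg adjustment over the 5 pairs in the exact test. On CPM, without division by length, *Selenoi* and *Cept1* were about equal (0.068), so that order rests on the exon lengths. *Chka* was above *Chkb* on CPM in NCD replicate 1, and with a mean of -1.26 the exact p of 0.0625 no longer passed.

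For *Pcyt2* to *Pcyt1a* the order per length turned between the diets. In FPKM *Pcyt2* was the higher in all 3 NCD mice, with ratios of 1.65, 2.44 and 2.61, and the lower in all 3 HFD mice, at 0.593, 0.923 and 0.872. This turn rests on the exon lengths, since on CPM *Pcyt2* was below *Pcyt1a* in all 6 mice (mean log2 ratio -1.02), while the difference between the diets does not depend on length. The mean log2 ratio was 1.13 ± 0.35 on NCD and -0.36 ± 0.35 on HFD (SD, n = 3 each), a difference of -1.49 that is larger than the spread in either group. An exact permutation test, two-sided, gave p = 0.1, which is the smallest that 3 against 3 allow, and 0.5 after adjustment over the 5 pairs. Without NCD replicate 1 the difference was -1.69.

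The *Chpt1* to *Cept1* ratio was 2.78, 7.36 and 15.6 on NCD and 3.23, 3.95 and 2.86 on HFD. The log2 difference was -1.04 (exact permutation p = 0.4), and -1.69 without NCD replicate 1, when the diets did not overlap. For *Slc44a2* to *Slc44a1*, *Chka* to *Chkb* and *Selenoi* to *Cept1* the diets overlapped, with log2 differences of 0.0047, -0.61 and -0.14 (exact permutation p = 1, 0.3 and 0.8). Without NCD replicate 1 these were 0.62, -0.09 and 0.25, and the diets then did not overlap in the first.

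**Figure D4:**
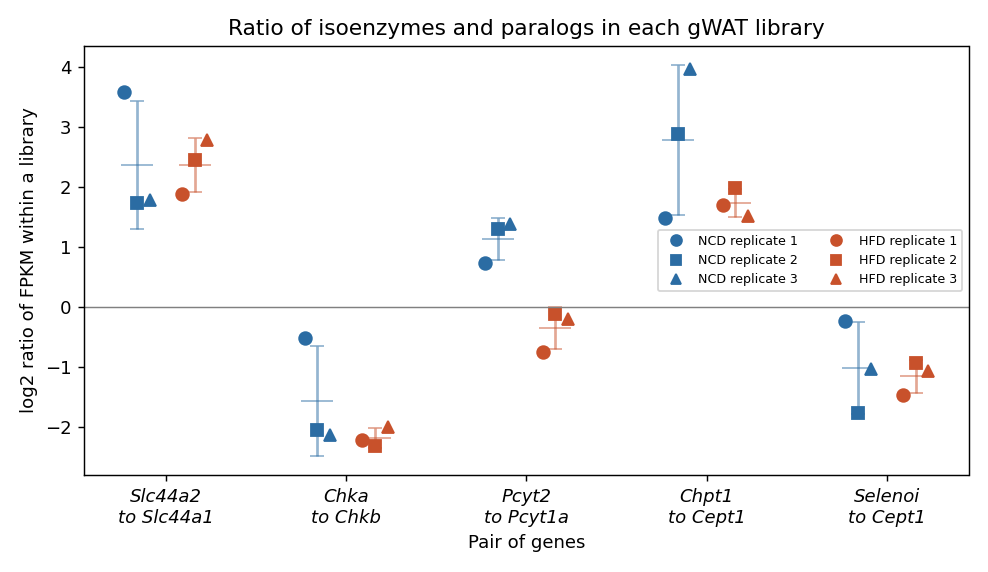
Log2 ratio of FPKM of 5 pairs of related genes within each library, with NCD in blue and HFD in orange, 1 symbol per replicate number, and bars for the mean and SD of each diet. The *Pcyt2* to *Pcyt1a* ratio lies above 0 in the 3 NCD mice and below 0 in the 3 HFD mice.

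The rest of choline and ethanolamine metabolism was followed in 8 lists of 46 genes, of which 44 were in the table and 38 passed the filter. By edgeR with Benjamini-Hochberg adjustment, 1 was higher and 4 were lower on HFD with all mice. Of all genes tested, 5.58% were called higher and 1.9% lower. Without NCD replicate 1, 7 of 39 were higher and 9 were lower, beside 10.7% of all genes called higher and 10.1% lower. The 9 lower include *Slc44a4*, which passed the filter on low counts only through the NCD libraries. The median log2 fold change over the tested genes of these lists was -0.17 with and without that mouse. *Chat* and *Slc18a3*, for the synthesis and vesicle storage of acetylcholine, were listed but not among the 44 found in the table. Their levels could therefore not be seen here.

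Choline oxidation turns choline to betaine in mitochondria. Its first enzyme is choline dehydrogenase, encoded by *Chdh*. *Chdh* was at 27.2, 55.8 and 77.2 CPM on NCD and 10.02, 14.2 and 5.82 on HFD. The diets did not overlap, and *Chdh* fell by 2.42 on the log2 scale (SE 0.49, edgeR adjusted p = 0.0425), and the log2 fold change was -2.72 (0.0101) without NCD replicate 1. The call was lost without the filter on low counts (0.0521) and on total counts (0.0975). Of the 6 genes of this list 3 passed the filter, and without NCD replicate 1 the other two, *Aldh7a1* (betaine aldehyde oxidation, log2 fold change -0.76) and *Sardh* (sarcosine dehydrogenase, -0.86), passed the threshold too, with adjusted p = 0.0258 and 0.0153.

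Enzymes that release choline or its esters from phospholipid went both ways. *Pnpla7*, encoding a lysophospholipase, was at 20.3, 23.9 and 29.8 CPM on NCD and 47.8, 43.9 and 44.2 on HFD, and it rose by 0.88 on the log2 scale (SE 0.18, edgeR adjusted p = 0.0417), or by 0.77 (0.0179) without NCD replicate 1. This call too was lost without the filter (adjusted p = 0.0529) and on total counts (0.106). *Gde1*, encoding a glycerophosphodiesterase, was at 129, 105 and 146 CPM on NCD and 43.6, 55.4 and 51.0 on HFD, and it fell by 1.34 (SE 0.18, adjusted p = 0.0223). Its log2 fold change was -1.31 (0.011) without NCD replicate 1, and the call was lost on total counts (adjusted p = 0.246). Neither gene's diets overlapped. The phospholipases D *Pld1* and *Pld2* and the phosphocholine phosphatase *Phospho1* rose without NCD replicate 1 (log2 fold changes 0.73, 0.43 and 0.81, adjusted p = 0.0201, 0.0403 and 0.0418) and were at 0.90, 0.45 and 0.83 with it (0.0656, 0.0768 and 0.0617).

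*Enpp2*, encoding autotaxin, which cuts choline from lysophosphatidylcholine, was at 85.4, 254 and 333 CPM on NCD and 82.6, 86.1 and 65.5 on HFD. As for *Chpt1*, NCD replicate 1 lay near the HFD mice. The log2 fold change was -1.52 (edgeR adjusted p = 0.104) with all mice and -1.90 (0.00656) without it. *Bche*, encoding butyrylcholinesterase, was at 92.5, 192 and 238 CPM on NCD and 33.6, 32.9 and 21.0 on HFD. It fell by 2.58 on the log2 scale (SE 0.40, adjusted p = 0.0253), with no overlap, and the log2 fold change was -2.87 (0.00544) without NCD replicate 1. The call was lost on total counts, where the edgeR adjusted p was 0.0668.

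Among the 7 other carriers, *Slc44a3* was at 67.7, 27.3 and 29.2 CPM on NCD and 7.99, 10.2 and 4.84 on HFD, and it fell by 2.43 on the log2 scale (SE 0.47, edgeR adjusted p = 0.0382), and the log2 fold change was -1.86 (0.0148) without NCD replicate 1. *Slc44a4* was at 171, 17.04 and 3.05 CPM on NCD with no count in any HFD library. Against a floor of 3 counts per HFD library, the NCD mean was at least 1407-fold higher. That mean rests mostly on NCD replicate 1, and without this mouse it was at least 222-fold higher. *Slc44a4* passed the filter on low counts only through the NCD libraries, where it was high, so no p is given for it. Its 3 NCD levels had the same order as the shares of seminal vesicle secretions, whose part in this difference was not tested. *Flvcr1*, which encodes a choline carrier once studied as a heme exporter, was at 22.0, 14.3 and 17.5 CPM on NCD and 39.3, 26.0 and 34.9 on HFD. Its log2 fold change was 0.90 (adjusted p = 0.0703), and it rose by 1.08 (0.024) without NCD replicate 1.

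The carriers *Flvcr2*, *Slc22a2* and *Slc44a5* had diets that did not overlap and differed over 2-fold without passing the threshold. *Flvcr2* was at 20.9, 2.49 and 1.56 CPM on NCD and 0.83, 1.29 and 0.73 on HFD, with a log2 fold change of -3.11 that went to -1.07 without NCD replicate 1. *Slc22a2* was at 0, 0.35 and 0.76 on NCD and 1.09 to 1.44 on HFD, and *Slc44a5* was below 0.33 CPM in every mouse. *Slc44a5* passed the filter on low counts only through the HFD libraries, where it was high. *Slc22a2*, at 0 in NCD replicate 1, could not have passed on the NCD libraries alone. The lack of overlap of these genes is therefore a description only.

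Among the neighbouring routes, no gene was called with all mice, and *Pemt*, *Pisd* and *Cds2* were called without NCD replicate 1. *Pemt*, which methylates phosphatidylethanolamine to phosphatidylcholine, was at 3.74, 8.59 and 9.88 CPM on NCD and 3.85, 4.35 and 3.49 on HFD, with a log2 fold change of -0.93 (edgeR adjusted p = 0.177) and of -1.23 (0.0137) without NCD replicate 1. *Pisd*, which makes phosphatidylethanolamine from phosphatidylserine in mitochondria, was at 41.4, 46.4 and 55.0 CPM on NCD and 73.7, 66.7 and 77.6 on HFD. All HFD mice were above all NCD mice, and its log2 fold change of 0.61 (0.068) went to 0.53 (0.0448). *Cds2*, a CDP-diacylglycerol synthase, likewise went from 0.63 (0.0885) to 0.51 (0.0412), and *Lpin1*, a lipin that supplies diacylglycerol, stood at -1.43 (0.0739) and -1.47 (0.0559). The ethanolamine kinases *Etnk1* and *Etnk2* and *Pcyt1b* had 0 calls in either comparison.

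**Figure D5:**
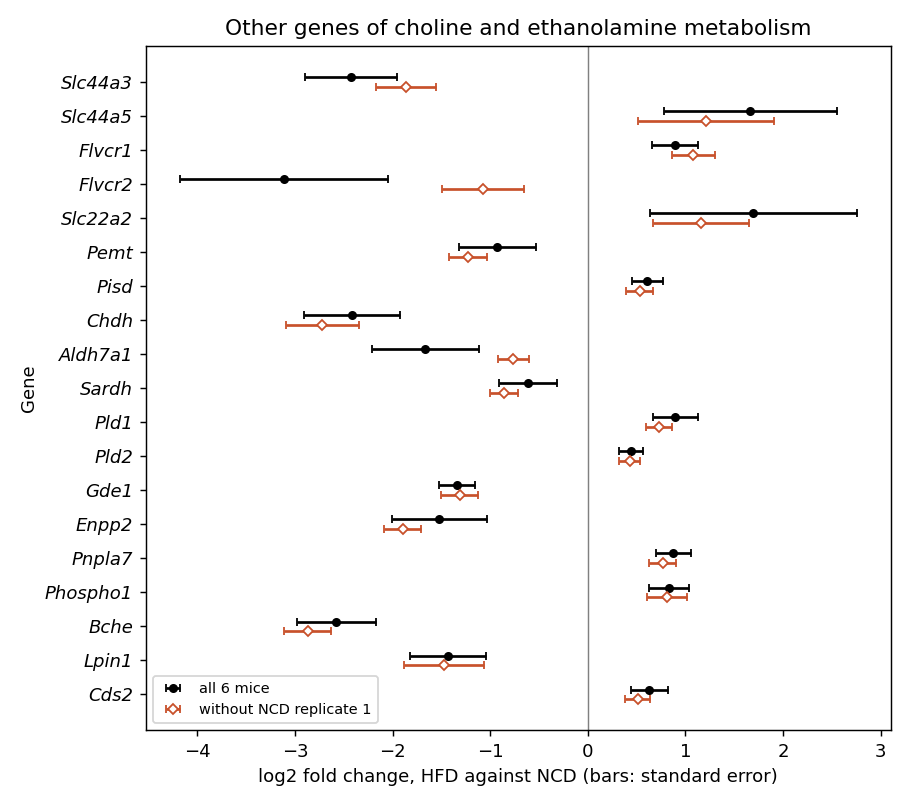
Log2 fold change of HFD against NCD with its standard error for 19 other genes of choline and ethanolamine metabolism, with all 6 mice (black points) and without NCD replicate 1 (open diamonds); *Slc44a4*, at 0 on HFD, is left out. *Bche*, *Chdh* and *Slc44a3* lie below -1.8 in both, and *Pnpla7*, *Pld1* and *Phospho1* between 0.73 and 0.90.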

How the data were processed

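RNA-seq of gWAT from 6 mice was used, 3 per diet. Raw read counts, which the authors deposited for each NCBI gene identifier and mouse, are not normalized. Per the labels the kit was stranded. The submitters' processing notes name bcl2fastq 2.20.0, Trimmomatic, HISAT2 2.1.0, StringTie 1.3.4d, DESeq2 and the builds mm10 and GRCm38, with no role or order, and whether the counting used strand is not stated. Of 19790 identifiers, 19742 were paired with a symbol through RefSeq's gene table of GRCm38.p6. Exon lengths are unions of GENCODE vM21 exons (17793 genes), and may differ from the authors'. Promoters are from RefSeq. No column was left without a sample (0).

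The edgeR package (4.0.16, in R 4.3.3) was used to keep genes by filterByExpr (at least 10 counts, total at least 15), to scale by TMM, and to fit and test by quasi-likelihood (glmQLFTest) without covariates. P-values were adjusted after Benjamini and Hochberg across all 15241 genes kept (threshold 0.05). The SE was obtained as the absolute log2 fold change over the root of F. The fit without NCD replicate 1 kept 15510 genes. The procedure was tested on simulated data. Replicates are labelled as separate mice and differed by more than counting noise (111 to 3438 chi-square units per degree of freedom). A gene without counts was given a floor of 3 counts per library, which covers counting error only.

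The genes and lists were chosen with earlier results of these data known. All 10 genes are named, and of the pathway lists those past the threshold with all mice or without NCD replicate 1, or with diets apart by over 2-fold, while marker lists are given as sums. The result of 1 marker list is not reported here. Alternatives were no filter, median-of-ratios scaling, total counts, scaling without secretory genes, DESeq2 1.42.0, a replicate block, each mouse left out, and for ratios CPM or FPKM + 1. Figures were drawn with matplotlib 3.10.9.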

Additional observations from a re-analysis of the deposited data

How the results depend on the processing

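With 3 mice per diet and a common biological coefficient of variation of 0.424, the spread between mice limits the calls, and counting error matters for *Slc5a7* on NCD alone among the 10 genes. Of the 9 genes tested, 0 were called with all mice, 1 by DESeq2 and 0 to 3 when 1 mouse was left out, with the 3 calls made without NCD replicate 1. Of the other pathway genes 5 were called, 3 without a filter, 3 on total counts, 16 by DESeq2 and 0 to 16 when 1 mouse was left out, 16 being the count without NCD replicate 1 and 0 without any other mouse, when 2 to 7 of all genes tested were called. *Slc44a4*, which passed the filter only through the NCD libraries, is among those called on total counts, by DESeq2 and without NCD replicate 1. With the replicate number as a block, 0 of the 9 and 0 of the other pathway genes were called, but the numbers do not pair the mice (correlation of deviations of same-numbered mice -0.056, -0.046 and 0.0097), and the block left 12 calls over all genes. Scaling by total counts moved the median log2 fold change of all genes from -0.08 to 0.44, and turned *Slc44a1* to 0.45, *Slc44a2* to 0.51, *Chka* to 0.10, *Cept1* to 0.23 and *Selenoi* to 0.24. Leaving out 1 mouse also turned the direction of genes that were not called: *Slc44a1* ran from -0.19 to 0.15, *Slc44a2* from -0.59 to 0.54, *Chka* from -0.96 to 0.11 and *Cept1* from -0.49 to 0.088. Over 360 alternative values for 30 genes, 10 turned direction, and the cause was not tested beyond the construction of each alternative.

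For the ratios within a library, leaving out 1 mouse gave mean log2 values of 2.12 to 2.49 for *Slc44a2* to *Slc44a1*, -2.14 to -1.78 for *Chka* to *Chkb*, 1.91 to 2.41 for *Chpt1* to *Cept1* and -1.26 to -0.95 for *Selenoi* to *Cept1*. A test of 5 mice cannot go below an exact sign-flip p of 0.0625, so these passed no threshold. With CPM in place of FPKM, *Chka* to *Chkb* was -1.26 and did not pass, and *Pcyt2* to *Pcyt1a* (-1.02) and *Selenoi* to *Cept1* (0.068) turned direction, since no length enters. The diet difference of *Slc44a2* to *Slc44a1* was -0.015 with a pseudocount of 1 and ran from -0.31 to 0.62 when 1 mouse was left out, and that of *Selenoi* to *Cept1* ran from -0.52 to 0.25. That of *Pcyt2* to *Pcyt1a* kept its direction, at -1.69 to -1.29, and paired by replicate number its value of -1.49 is the same by construction.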
